A study of Drosophila melanogaster with 12 samples.

Results

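These data describe the heads of Drosophila melanogaster males 7 days after they were taken off the convulsant pentylenetetrazol (PTZ). The members are the 4 arrays whose titles give the 14th day, of 12 arrays in the series, and 3010 of the 6793 named genes on the slide had a value on at least 3 of those 4 arrays. All flies were unmated Oregon-R wild-type males, kept 30 to a vial, and were 4 to 5 days old at the start by the sample labels. Treated flies spent 7 days on food containing 8 mg/ml PTZ and the next 7 days on normal food, and untreated flies ate normal food throughout. Each array hybridised RNA from a pool of treated heads against RNA from a pool of untreated heads, the untreated pool being the other channel of the same slide. The arrays of day 10, after 3 days of withdrawal, serve here as the comparison. They used the same slide design, but for 3 of them, day 10 replicates 1, 2 and 3, the protocol mentions Cy3 although the channel label of treated heads is Cy5, as on day 14.

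PTZ blocks ion channels opened by the inhibitory transmitter GABA and so raises the excitability of neurons. Signalling between neurons draws heavily on ATP from the mitochondrial respiratory chain, and synaptic vesicles are loaded with transmitter by a proton gradient that the vacuolar ATPase builds. A fly head holds brain, compound eyes, antennae, muscle, fat body, cuticle and blood cells, so a ratio from whole heads sums over all of them. In such a ratio, fewer cells of a type and less RNA per cell cannot be told apart. The deposited values are ratios without levels, so whether a tissue's markers were high or low in these heads cannot be read from them. Only the number of markers tested and their ratios are given below.

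A value is the log2 ratio of withdrawn over untreated heads, with the median of each array set to 0. The direction of these ratios is open to doubt. By the channel labels, treated heads were in Cy5 on all 4 arrays, whereas the series text has the dyes swapped on 2 of the 4 arrays of each day without naming them. Values are given as the channel labels have them. A gene with 1 sign on all 4 arrays loses it whenever a pair of arrays is turned, so the directions, ranks and counts of 1 sign below hold for the signs as the channel labels give them. Of 45 lists with 8 or more tested genes, 10 kept the sign of their median with replicates 3 and 4 turned, 25 with replicates 2 and 4 turned and 24 with replicates 2 and 3 turned. Turned values are given for the leading genes and for the lists described most closely. The arrays also differed in coverage, with 19807, 9592, 16517 and 4310 spots measured on replicates 1 to 4. Of the 2291 genes with 3 values, 1893 lacked one on replicate 4, so most of what follows rests on replicates 1, 2 and 3. Across genes, pairs of arrays correlated weakly, with Pearson's r from -0.014 to 0.233, as a description over genes, which are not independent.

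Ratios also followed the place of a spot on the slide. The 27648 spots lie in 48 print blocks of 24 by 24 spots, and block medians ran from -0.202 to 0.267 on replicate 1, from -0.183 to 0.197 on replicate 2, from -0.091 to 0.098 on replicate 3 and from -0.160 to 0.149 on replicate 4. In the first 16 blocks the median was above 0 in 11, 12, 13 and 9 blocks of the 4 arrays, and in the last 16 blocks in 7, 2, 1 and 5. All 4 arrays thus ran from high to low along the spot numbers. The main counts below are therefore also given with the median of each block set to 0 on each array, and so are those of the lists where it changed most. The sign of the median was then kept in 37 of the 45 lists.

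**Figure D1:**
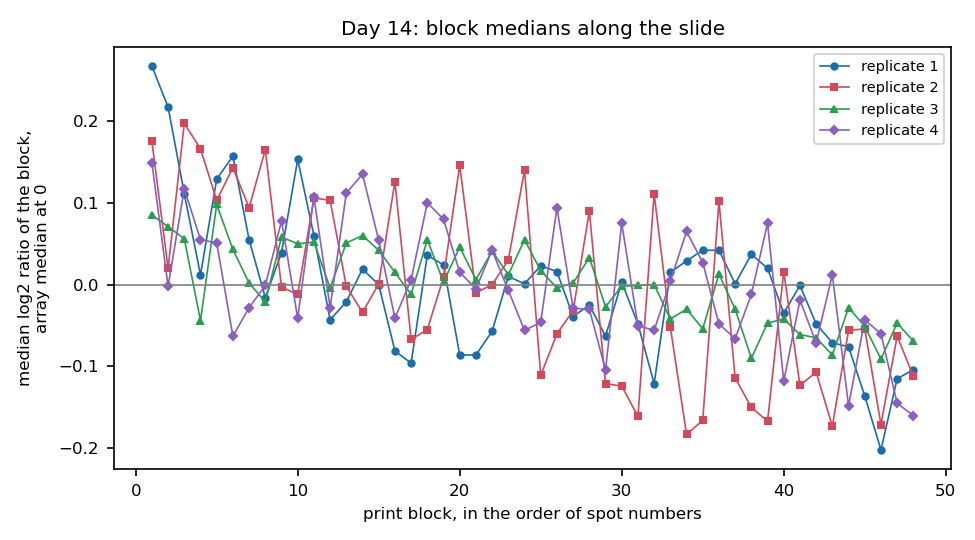
Median log2 ratio of each print block (vertical axis, log2, array median at 0) against block number in spot order (horizontal axis, 48 blocks) for the 4 day 14 arrays, 1 line per array. The lines start mostly above 0 and end below it, from as high as 0.267 to as low as -0.202 on replicate 1.

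No gene passed the test at day 14. The mean of each gene over the 4 arrays was tested against 0 with limma and Benjamini-Hochberg adjustment over all genes tested, and 0 of 3010 (0%) had an adjusted p under 0.05, the smallest being 0.528. At an unadjusted p under 0.05 there were 137 genes above 0 (4.55%) and 83 below 0 (2.76%). The mean lay above 0 in 1570 genes (52.2%), or 1512 (50.2%) with block medians at 0. The median SD of a gene over its arrays was 0.205. Means were small: 11 genes stood at 0.5 or more and 21 at -0.5 or less. The single gene beyond 1 in either direction was p-cup, named here after its value was seen, at 0.61, 2.19 and 0.38 on replicates 1, 2 and 3, and its spots on 1 array differed by up to 3.64. Every gene named below therefore had an adjusted p of at least 0.528 at day 14. Below, 4 values are those of replicates 1 to 4, and 3 values with no array named are those of replicates 1, 2 and 3.

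The sign was the same on every array that measured the gene in 819 of 3010 genes (27.2%), in 435 above 0 (14.5%) and 384 below 0 (12.8%). Among the 719 genes with all 4 values there were 62 above (8.62%) and 36 below (5.01%). Among those with 3 values there were 373 above (16.3%) and 348 below (15.2%). Signs falling at random would also give 1 sign in part of the genes, more often with 3 values than with 4. These counts are therefore a description and were not tested. With replicates 3 and 4, 2 and 4, or 2 and 3 turned, 277, 412 and 296 genes had 1 sign above 0. Those below 0 then numbered 290, 307 and 253. The median mean was 0.220 in the genes above 0 and -0.199 in those below. Place on the slide went with this count: 21.7% of the genes in the first 16 blocks had 1 sign above 0 and 6.09% below, against 10% and 20.8% in the last 16 blocks. When block medians were set to 0, the shares were 13.6% and 11.1% in the first 16 blocks and 16.9% and 13.4% in the last 16, and over all genes 425 stood above 0 (14.1%) and 364 below (12.1%). Of the 819 genes, 592 (72.3%) kept their single sign under that setting.

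Most of the 819 genes carry no function in the lists used. There were 62 lists of pathways, complexes and tissue markers, and 194 of the 819 genes were in at least 1 of them, as were 733 of the 3010 genes tested. Of the 819, 335 were known only by a CG or CR number. The lists are described below by how many members had 1 sign and by the median of the members' means, beside 14.5%, 12.8% and a median of 0.009 over all genes.

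Among genes with a value on all 4 arrays and 1 sign, the 10 highest means ran from 0.28 to 0.36. CG42588 headed them at 0.34, 0.34, 0.41 and 0.35 on replicates 1 to 4 (mean 0.36 ± 0.03 SD, n = 4), a 1.28-fold ratio, and its 4 arrays lay closer together than those of any other gene of the 10. With replicates 3 and 4, 2 and 4, or 2 and 3 turned its mean was -0.02, 0.01 and -0.02, and with runs of neighbouring spots centred it was 0.22, below the 0.38 of GatA. GatA, which serves mitochondrial tRNA charging, lay at 0.12, 0.23, 0.63 and 0.39 (mean 0.34 ± 0.22 SD, n = 4), highest on replicate 3. ND-B17.2, a subunit of respiratory complex I, was more even at 0.24, 0.27, 0.44 and 0.37 (mean 0.33 ± 0.09 SD, n = 4), and had a mean of 0.21 with runs of neighbouring spots centred. Mpcp2, which carries phosphate into mitochondria, stood at 0.28, 0.12, 0.47 and 0.27 (mean 0.29 ± 0.15 SD, n = 4). The antizyme Oda, which restrains polyamine synthesis, had 0.06, 0.22, 0.61 and 0.42 (mean 0.33 ± 0.24 SD, n = 4) and so was near 0 on replicate 1. eIF6, which acts in maturation of the large ribosomal subunit, had 0.33, 0.21, 0.22 and 0.36 (mean 0.28 ± 0.08 SD, n = 4), and a mean of 0.16 with block medians at 0. The odorant-binding protein Obp56d had 0.24, 0.10, 0.36 and 0.46, and its spots on 1 array differed by up to 1.23. CG5421, CG14687 and CG15098 completed the 10, with means of 0.32, 0.30 and 0.29.

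The 10 lowest means ran from -0.25 to -0.88. CG31974 was lowest, at -1.66, -0.96, -0.58 and -0.30 (mean -0.88 ± 0.59 SD, n = 4), a ratio of 0.54. It was below 0 on every array but its values spanned over 1 log2 unit. Its mean stayed below 0 under each turned pair, at -0.43, -0.24 and -0.10. cnk, a scaffold of the Ras to MAP kinase pathway, lay at -0.73, -0.35, -0.30 and -0.23 (mean -0.40 ± 0.23 SD, n = 4). CG10417 lay at -0.54, -0.52, -0.18 and -0.32, and CG6959 at -0.41, -0.35, -0.15 and -0.37. Both were below 0 on every array, with replicate 3 nearest to 0. Atg18b, an autophagy protein, had -0.55 and -0.73 on replicates 1 and 2 but -0.09 and -0.01 on replicates 3 and 4. foxo, the transcription factor held in check by insulin signalling, had -0.66 on replicate 1 against -0.14, -0.15 and -0.08 on the others. Likewise vig, a component of the RNA-induced silencing complex, had -1.11 on replicate 4 against -0.09, -0.20 and -0.08, with spots of 1 array up to 2.40 apart. Jwa, the deubiquitinase Duba and MESR3 had means of -0.32, -0.28 and -0.25. Under centred blocks, the values of foxo, MESR3 and, among the 10 highest, CG5421 no longer had 1 sign.

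**Figure D2:**
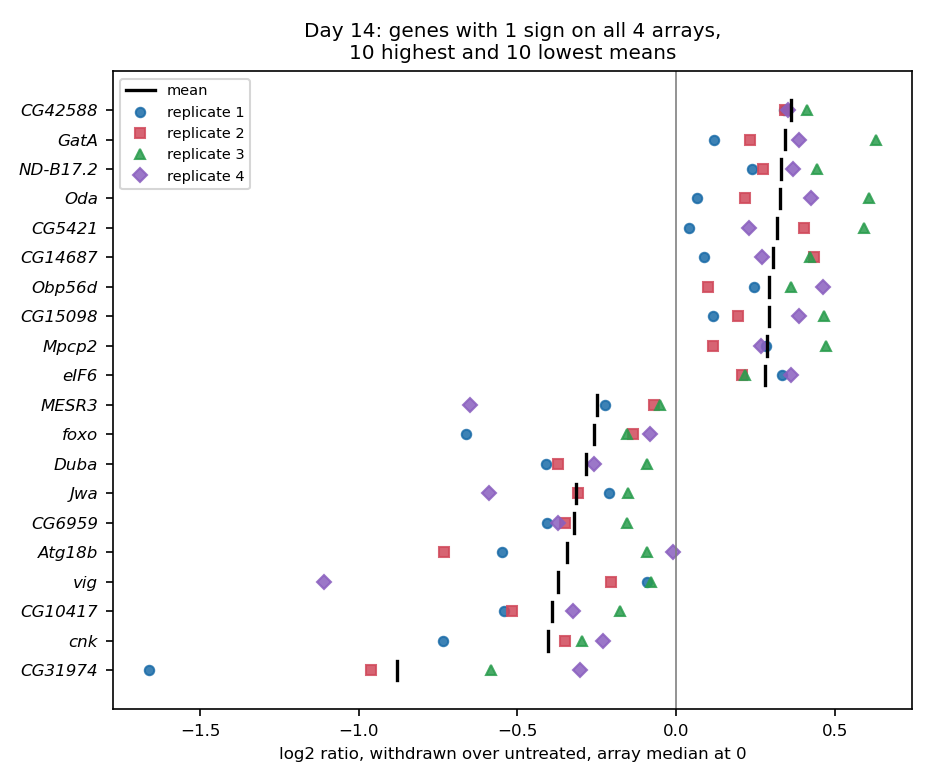
Log2 ratio on each of the 4 day 14 arrays (horizontal axis, array median at 0, 1 symbol per array, black bar the mean) for the 10 highest and 10 lowest means among genes with 1 sign on all 4 arrays (vertical axis). The means run from 0.28 to 0.36 in the upper 10, while CG31974 at the bottom spans -1.66 to -0.30.

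With genes of 3 values included, the smallest unadjusted p above 0 belonged to CG14689, CG30491, mtg, mRpS18B and Mks1. mtg, a secreted protein that organises the synaptic cleft, lay at 0.69, 0.88 and 0.33 on replicates 1, 2 and 3 (mean 0.63 ± 0.27 SD, n = 3). The mitochondrial ribosomal protein mRpS18B lay at 0.65, 0.50 and 0.43 (mean 0.53 ± 0.11 SD, n = 3), and Mks1, a protein of the base of cilia, at 0.70, 0.40 and 0.48. CG14689 and CG30491 had means of 0.56 and 0.54. All 5 lacked a value on replicate 4. Below 0 they were CG6296, CG31974, CG18004, CG6293 and NimB4. CG6296 had the smallest p of all 3010 genes (0.000201 before adjustment, limma), at -0.73, -0.88 and -0.64 on replicates 1, 2 and 3 (mean -0.75 ± 0.12 SD, n = 3), although its spots on 1 array lay up to 1.28 apart. CG18004, CG6293 and NimB4, a member of the Nimrod family of blood cell proteins, had means of -0.73, -0.71 and -0.55.

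Among lists with over 10 tested members, 1 sign was most common in oxidative phosphorylation and in complex I within it. Of its 32 genes on the slide, 25 were tested, 20 stood above 0, 12 had 1 sign above 0 and 1 had 1 sign below (52%, beside 27.2% of all genes). The median was 0.123, and on replicates 1 to 4 it was 0.076, 0.031, 0.274 and 0.205, lowest on replicate 2 and highest on replicate 3. With block medians at 0, 22 of 25 stood above 0, the median was 0.097, and 10 had 1 sign above 0 and none below. These are counts without a test of the list. With the signs of replicates 3 and 4 turned the median was -0.048, with those of 2 and 4 turned 0.035, and with those of 2 and 3 turned -0.025.

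Complex I, which takes electrons from NADH, gave the largest group. Of 11 tested subunits 10 stood above 0, with a median of 0.132, and with block medians at 0 all 11 did. Besides ND-B17.2, the subunit ND-13B lay at 0.11, 0.64 and 0.38 on replicates 1, 2 and 3 (mean 0.38 ± 0.26 SD, n = 3) and ND-15 at 0.15, 0.35, 0.13 and 0.24 (mean 0.22 ± 0.10 SD, n = 4). These were above 0 on each array, unlike ND-18, which was near 0 at -0.09, -0.02 and -0.01. In complex II, which links the chain to the citric acid cycle, SdhC had 0.28, 0.18 and 0.09 on replicates 1, 2 and 3, and the median of the 3 tested subunits was 0.104. In complex III, which passes electrons to cytochrome c, the 2 tested subunits stood at -0.11 for UQCR-6.4 and 0.08 for Cyt-c1. In complex IV, which hands electrons to oxygen, levy had 0.17, 0.41 and 0.49 on replicates 1, 3 and 4 (mean 0.36 ± 0.17 SD, n = 3) and COX7A 0.22, 0.08 and 0.09 on replicates 1, 2 and 3.

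ATP synthase, which turns the proton gradient of the chain into ATP, had 5 of 7 tested subunits above 0 and a median of 0.087, or 0.054 with block medians at 0. ATPsynE lay at 0.22, 0.20, 0.37 and 0.24 (mean 0.26 ± 0.08 SD, n = 4), ATPsynD at 0.08, 0.42 and 0.27 on replicates 1, 2 and 3, and ATPsynG at 0.01, 0.15, 0.12 and 0.06. The catalytic subunit ATPsynbeta, named after its value was seen, did not share this: it was at -0.51 on replicate 2 and at 0.41 on replicate 3 (mean -0.01 ± 0.38 SD, n = 4). Other mitochondrial genes were less even. Of 7 tested import and carrier genes 5 stood above 0, with a median of 0.049. Mitochondrial ribosomal proteins had 6 of 19 above 0 and a median of -0.028. Among them mRpS18B stood apart, while mRpS29 had -0.50, -0.09 and -0.14 on replicates 1, 3 and 4 and mRpS31 -0.13, -0.18 and -0.18 on replicates 1, 2 and 3. In glycolysis 6 of 10 stood above 0, with a median of 0.037. Its first enzyme Hex-A lay at 0.04, 0.62, 0.04 and 0.34 (mean 0.26 ± 0.28 SD, n = 4), and Pfk, which commits sugar to the pathway, at 0.39, 0.04 and 0.21 on replicates 1, 2 and 3.

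The vacuolar ATPase, the proton pump of lysosomes and synaptic vesicles, had all 9 tested members above 0, of 11 on the slide. The median was 0.186, the highest of any list with 8 or more tested members, and on replicates 1 to 4 it was 0.012, 0.210, 0.360 and 0.120, so replicate 1 was close to 0. Of the 9 genes 3 had 1 sign (33.3%). With block medians at 0, 8 of 9 stood above 0 with a median of 0.152, and without replicate 3 the median was 0.072. In the catalytic part, Vha26 had 0.05, 0.18, 0.69 and 0.10 (mean 0.25 ± 0.30 SD, n = 4), Vha44 0.02, 0.37, 0.28 and 0.29 (mean 0.24 ± 0.15 SD, n = 4) and VhaSFD 0.01, 0.04, 0.36 and 0.10. Their values on replicate 1 were at most 0.05. With the signs of replicates 3 and 4 turned the list median was -0.088, with those of 2 and 4 turned 0.084, and with those of 2 and 3 turned -0.101.

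**Figure D3:**
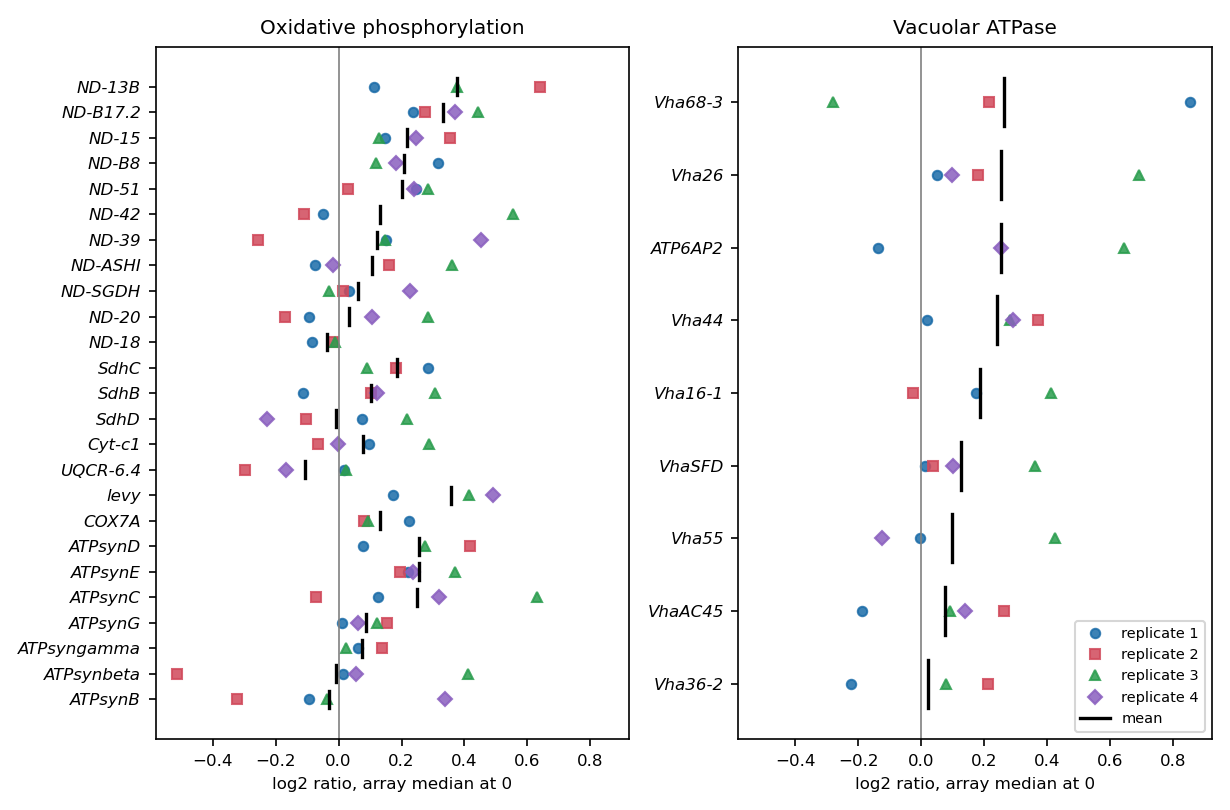
Log2 ratio on each day 14 array (horizontal axes, array median at 0, 1 symbol per array, black bar the mean) for the 25 tested genes of oxidative phosphorylation, ordered by complex (left), and the 9 tested genes of the vacuolar ATPase (right). On the left 20 means lie above 0 and on the right all 9, while single arrays of many genes lie below 0.

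Autophagy and lysosome genes had 13 of 19 above 0, 5 with 1 sign above and 2 below, with a median of 0.048. Atg8b, a form of the autophagosome protein Atg8, lay at 0.78, 0.12 and 0.45 on replicates 1, 2 and 3 (mean 0.45 ± 0.33 SD, n = 3), and the lysosomal protease CtsB at 0.16, 0.40 and 0.59 (mean 0.38 ± 0.22 SD, n = 3). ref(2)P, the receptor that brings cargo to autophagosomes, lay at 0.38, 0.15 and 0.12 on replicates 1, 3 and 4. Against these stood Atg18b and Vps51, the latter at -0.15, -0.29 and -0.18. In the proteasome 10 of 14 stood above 0 with a median of 0.072, which was 8 of 14 and 0.018 with block medians at 0. The polyubiquitin genes Ubi-p5E and Ubi-p63E were at 0.01, 0.68 and 0.58 and at 0.15, 0.42 and 0.43 on replicates 1, 3 and 4, with low values on replicate 1 in both, and they share near-identical repeats, so their spots may read each other's RNA. Cul2, a scaffold of ubiquitin ligases, lay below 0 at -0.33, -0.75 and -0.12 on replicates 1, 2 and 3.

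Membrane trafficking genes more often lay below 0 by the channel labels, but the median was above 0 with replicates 3 and 4 turned (0.030) or 2 and 4 turned (0.032). Of 36 tested genes 13 stood above 0, 3 had 1 sign above and 8 below (beside 12.8% of all genes), and the median was -0.029. Centring the blocks gave 4 above and 3 below, so 1 sign below 0 was no longer the more common. Without replicate 4 the median was -0.008, and without replicate 3 it was -0.061. betaCOP, a coat protein of Golgi vesicles, had -0.34, -0.90 and -0.11 on replicates 1, 2 and 3 (mean -0.45 ± 0.41 SD, n = 3), with spots of 1 array up to 1.15 apart. The small GTPase Arl5 was even at -0.46, -0.33 and -0.31 (mean -0.37 ± 0.08 SD, n = 3), and Rabex-5, an activator of the endosomal Rab5, lay at -0.06, -0.06 and -0.32. Above 0 were 2 parts of the clathrin machinery: AP-2sigma at 0.31, 0.29 and 0.27 (mean 0.29 ± 0.02 SD, n = 3) and the clathrin heavy chain Chc at 0.29, 0.14 and 0.06.

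Genes of transmitter release had 7 of 15 above 0, 4 with 1 sign above and 1 below. Besides mtg and AP-2sigma, the vesicle fusion protein nSyb lay at 0.28, 0.26 and 0.13 on replicates 1, 2 and 3 (mean 0.22 ± 0.08 SD, n = 3). shi, the dynamin that pinches off endocytic vesicles, lay at -0.04, -0.08 and -0.22 on replicates 1, 3 and 4. The list median was -0.011, close to that of all genes.

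For GABA, the transmitter whose channels PTZ blocks, 6 genes were on the slide and 2 were tested. Gad1, which makes GABA, lay at 0.01, 0.24, 0.26 and 0.04 (mean 0.14 ± 0.13 SD, n = 4), above 0 on all arrays and nearly at 0 on 2 of them. Gabat, which breaks GABA down, lay at -0.23, 0.01, 0.21 and 0.30 (mean 0.07 ± 0.24 SD, n = 4), on both sides of 0. Neither had 1 sign with block medians at 0. Of glutamate genes 4 of 5 stood above 0 with a median of 0.095, among them Gs1, a glutamine synthetase, at 0.29, 0.18 and 0.22 on replicates 1, 3 and 4. Of acetylcholine genes 2 of 6 stood above 0 with a median of -0.044, or 3 of 6 and -0.001 with block medians at 0. In monoamine genes 8 of 10 stood above 0 with a median of 0.035. ple, the enzyme that starts dopamine synthesis, lay at 0.64, 0.47 and 0.32 on replicates 1, 2 and 3 (mean 0.48 ± 0.16 SD, n = 3), and tan (t), which frees dopamine and histamine from their storage forms, at 0.04, 0.11, 0.38 and 0.29.

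Ion channels and pumps showed both signs, with 3 of 17 above and 4 below 0 on every array and a median of -0.013, which became 4, 2 and 0.016 with block medians at 0. The pacemaker channel Ih lay at 0.53, 0.42 and 0.21 on replicates 1, 2 and 3 (mean 0.39 ± 0.16 SD, n = 3), and Slob, a partner of a potassium channel, at 0.05, 0.13 and 0.24 on replicates 1, 3 and 4. On those 3 arrays Ca-beta, a calcium channel subunit, lay at -0.42, -0.11 and -0.20, the chloride transporter ClC-c at -0.24, -0.07 and -0.40, and the heat-gated channel pyx at -0.30, -0.04 and -0.53. Second messenger genes had 3 with 1 sign above and 3 below among 20, and a median of 0.003, or -0.037 with block medians at 0. 14-3-3zeta, an adaptor of kinase signalling, lay at 0.06, 0.36 and 0.32 on replicates 1, 3 and 4, whereas loco, a regulator of G proteins in glia, lay at -0.42, -0.12 and -0.38 on replicates 1, 2 and 4. Neuropeptide genes had 9 of 14 above 0 and a median of 0.057 (8 of 14 and 0.040 with block medians at 0). Nplp3, a peptide precursor, lay at 0.19, 0.45 and 0.28 and the peptide-processing enzyme Pal2 at 0.15, 0.56, 0.26 and 0.07, while the ion transport peptide ITP lay at -0.30, -0.17 and -0.16. In clock genes 3 of 7 stood above 0, or 4 of 7 with block medians at 0, and lark, an RNA-binding protein of clock output, lay at -0.55, -0.59 and -0.11.

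Eye and phototransduction genes had 14 of 17 tested members above 0 (beside 52.2% of all genes), with a median of 0.071 and array medians of 0.025, 0.028, 0.177 and 0.041. The 1 member with 1 sign was trpl, a light-activated channel, at 0.07, 0.13, 0.14 and 0.04 (mean 0.09 ± 0.05 SD, n = 4). With block medians at 0, 12 of 17 stood above 0, and the median was -0.019, 0.016 and -0.037 with replicates 3 and 4, 2 and 4, or 2 and 3 turned. Without replicate 2 it was 0.121. In smell and taste, 4 of 19 genes had 1 sign above and 4 below. The odorant-binding proteins were on both sides: Obp56d above 0, and Obp19b at -0.07, -0.14, -0.29 and -0.29 (mean -0.20 ± 0.11 SD, n = 4).

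Muscle genes, of which 8 of 14 were tested, had 6 above 0 and a median of 0.103, with 0.096, 0.098, 0.068 and 0.099 on the 4 arrays. The actins Act88F of flight muscle and Act79B of other adult muscle accounted for both members with 1 sign above 0. Act79B was the most even of them, at 0.25, 0.24, 0.26 and 0.27 (mean 0.26 ± 0.01 SD, n = 4), and Act88F had 0.34, 0.28 and 0.36 on replicates 1, 3 and 4 (mean 0.33 ± 0.04 SD, n = 3). Actin genes are near-identical in their coding parts, so the spots may read each other's RNA. Zasp66, a protein of the muscle Z disc, lay at -0.14, -0.06 and -0.02 on replicates 1, 3 and 4. Without replicate 1 the list median was 0.060, and with replicates 3 and 4, 2 and 4, or 2 and 3 turned it was -0.014, -0.004 and 0.015.

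Lists of other tissues had medians of 0.025 over 9 tested glial genes, -0.042 over 5 general neuronal genes, -0.023 over 12 fat body genes and -0.006 over 8 blood cell genes, beside 0.009 over all genes. With block medians at 0 these became 0.085, -0.058, -0.045 and -0.025, beside 0.000 over all genes. Of the 9 glial genes 5 stood above 0 and 4 below, and 1 in each direction had 1 sign. Above 0 it was the engulfment receptor drpr, at 0.50, 0.16 and 0.42 on replicates 1, 2 and 3 (mean 0.36 ± 0.18 SD, n = 3). Below 0 it was loco, at -0.42, -0.12 and -0.38 on replicates 1, 2 and 4. The fat synthesis enzyme FASN1 lay at 0.24, 0.47 and 0.17 on replicates 1, 3 and 4, and Apoltp, a lipid transfer protein of the blood, at -0.27, -0.40 and -0.04 on replicates 1, 2 and 3. Testis and accessory gland lists, whose tissues a head should not hold, had 3 and 2 tested members. Their medians were 0.042 and 0.132, or 0.105 and 0.135 with block medians at 0. The list of female germ line and yolk genes had 9 tested members and a median of -0.061, or -0.030 with block medians at 0.

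Detoxification genes were mixed. In cytochrome P450 genes, which oxidise foreign compounds and hormones, 18 of 29 stood above 0 with a median of 0.026, and 5 with 1 sign above and 2 below became 3 and 3 with block medians at 0. Cyp4e3 lay at 0.76, 0.29 and 0.44 on replicates 1, 2 and 3 (mean 0.50 ± 0.24 SD, n = 3), and Cyp4c3 at -0.77, -0.27 and -0.94 (mean -0.66 ± 0.35 SD, n = 3). Glutathione S-transferases had 7 of 9 above 0 and a median of 0.166, which became 5 of 9 and 0.056 with block medians at 0. Of antioxidant enzymes 1 of 7 had 1 sign above 0 and 3 had 1 sign below: Gclm, which serves glutathione synthesis, at -0.14, -0.22 and -0.20 on replicates 1, 3 and 4, the mitochondrial superoxide dismutase Sod2 at -0.22, -0.04 and -0.14 on the same arrays, and the peroxiredoxin Prx6a at -0.07, -0.21 and -0.08 on replicates 1, 2 and 3. The related Prx6c lay at 0.10, 0.11 and 0.25. Over all 7 the mean was above 0 in 4, or in 2 with block medians at 0. In innate immunity 9 of 16 stood above 0, or 6 of 16 with block medians at 0, and 2 had 1 sign, Dif, a transcription factor of the Toll pathway, at 0.09, 0.13, 0.10 and 0.28, and grass, a protease upstream of Toll, at -0.56, -0.12 and -0.16.

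Translation factors had 18 of 27 above 0, 4 with 1 sign above and 1 below, with a median of 0.037. The blocks at 0 left 15 of 27 above 0 and a median of 0.019. eIF4E5, a cap-binding protein, lay at 0.75, 0.29 and 0.33 on replicates 1, 2 and 3, and the helicase eIF4A at 0.05, 0.19 and 0.51. Cytosolic ribosomal proteins had 7 of 11 above 0, with no member of 1 sign. Noc2, which acts in assembly of the large ribosomal subunit, was among the lowest of all genes at -0.29, -0.93 and -1.33 on replicates 1, 2 and 3 (mean -0.85 ± 0.52 SD, n = 3), with spots of 1 array up to 1.79 apart. In splicing and mRNA processing 6 of 35 had 1 sign above and 7 below, and in the cell cycle list 4 and 5 of 25, which became 5 and 5, and 1 and 5, with block medians at 0. RNA polymerase and transcription genes had 3 of 24 with 1 sign above and 3 below, with a median of 0.040. Both subunits of the general transcription factor TFIIE were above 0, TfIIEalpha at 0.46, 0.17 and 0.23 and TfIIEbeta at 0.43, 0.15 and 0.27. Chromatin genes had 2 of 19 with 1 sign above and 3 below and a median of -0.024. The counts became 4 and 0 with block medians at 0. The histone chaperone Nap1 was even at 0.23, 0.23, 0.27 and 0.18 (mean 0.23 ± 0.03 SD, n = 4). Hormone and nuclear receptor genes had 8 of 14 above 0 with a median of 0.094, or 0.059 with block medians at 0 and 0.013 with runs of neighbouring spots at 0, among them tai, a partner of the ecdysone receptor, at 0.49, 0.29 and 0.32 (mean 0.36 ± 0.11 SD, n = 3). Adhesion genes had 12 of 24 above 0, 3 with 1 sign above and 3 below, and a median of -0.007. Of those above, trn, a cell surface protein with leucine-rich repeats, lay at 1.10, 0.68 and 0.16 (mean 0.65 ± 0.47 SD, n = 3), and the integrin subunit inflated (if) at 0.51, 0.62 and 0.17.

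**Figure D4:**
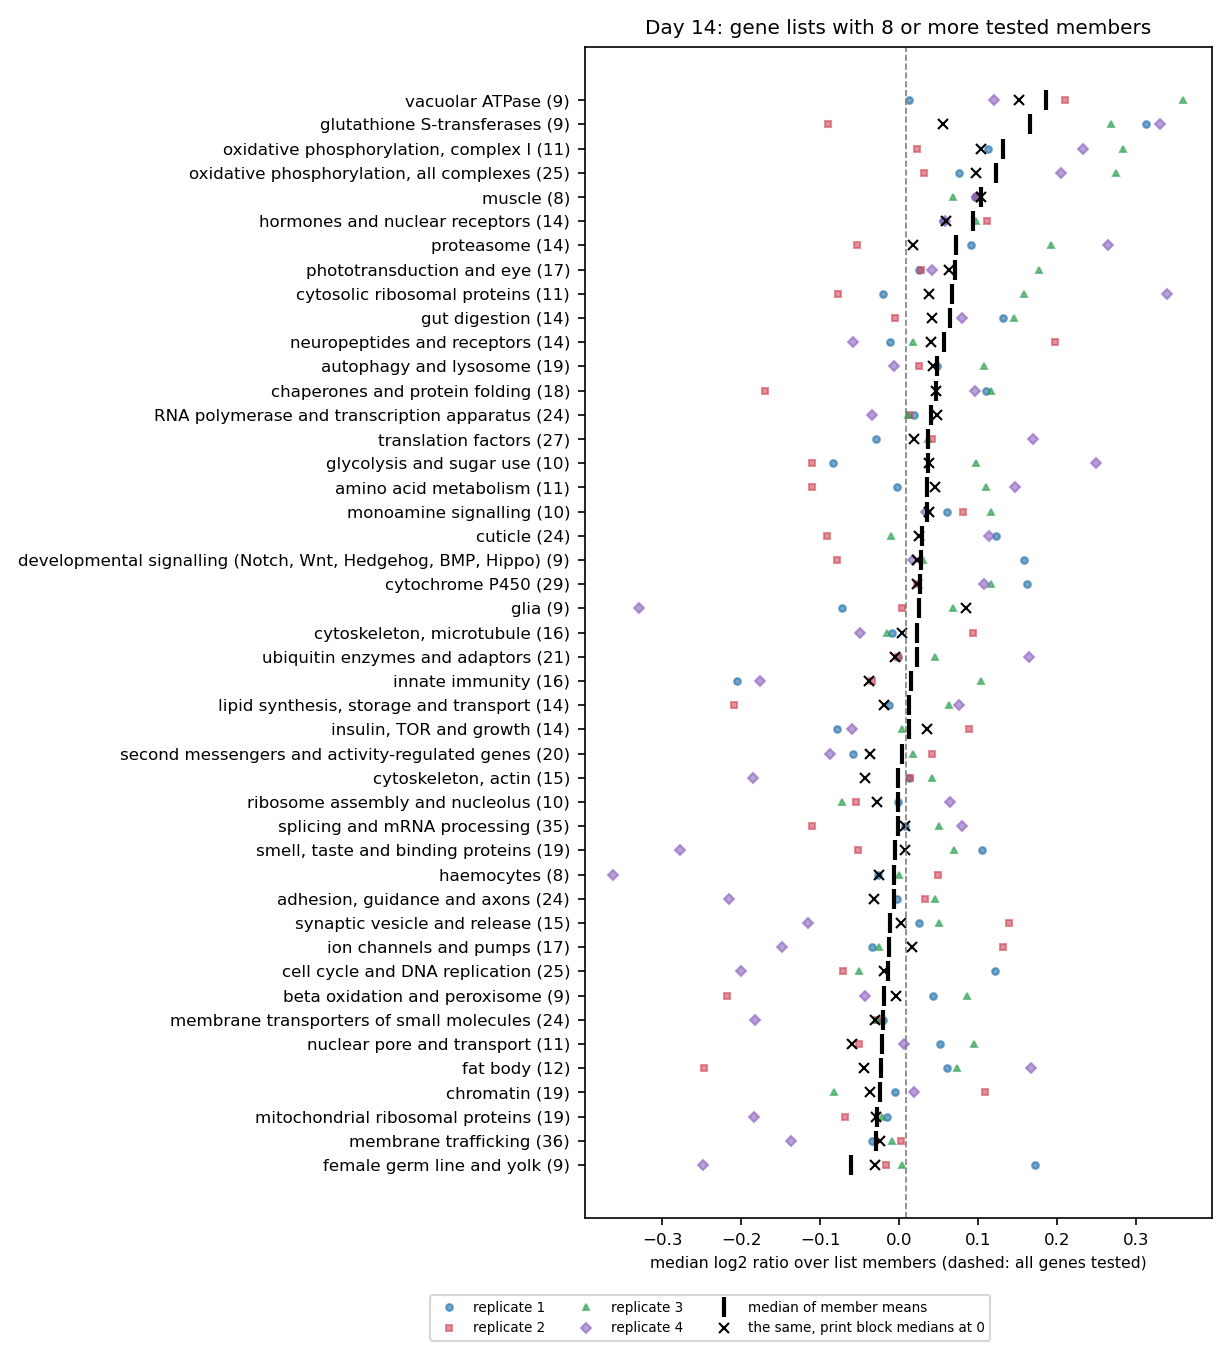
Median log2 ratio over the tested members of each gene list with 8 or more of them (vertical axis, number tested in brackets), on each day 14 array (coloured symbols), as the median of the members' means (black bar) and the same with print block medians at 0 (cross); the dashed line is the median of all genes, 0.009. The vacuolar ATPase, at 0.186, and oxidative phosphorylation, at 0.123, lie at the upper end with all array medians above 0. Between them lie glutathione S-transferases, at 0.166 but below 0 on replicate 2, and complex I, at 0.132. Muscle, hormone and nuclear receptor, eye, cytochrome P450 and monoamine genes also had all array medians above 0.

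Day 14 was set against day 10 in 2385 genes with at least 3 values on each day. The fit took the arrays as independent, although those of day 10 fall into correlated pairs. SEs and p-values of the difference may therefore be too small. No difference passed: 0 of 2385 (0%) had an adjusted p under 0.05 in limma, the smallest being 0.272, and at an unadjusted p under 0.05 there were 108 above (4.53%) and 102 below (4.28%). Of the genes with 1 sign above 0 at day 14, 319 had a day 10 mean, which was above 0 in 197 (61.8%), and of those below 0, 128 of 301 (42.5%) were above 0 at day 10, beside 52.9% of all genes measured on both days. Under centred blocks on both days these shares were 56% and 49.1%, beside 52.5%. The days share no sample, but they share the slide layout.

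The smallest p of the difference below 0 belonged to wus, CG30111, CG5107, CG1647 and Nemp. wus, a membrane chaperone of endocytosis, lay at 1.78, 1.13 and 0.86 on day 10 replicates 2, 3 and 4 and at -0.12, -0.57, 0.12 and -0.94 on day 14, and the days do not overlap (difference -1.63 ± 0.28 SE, adjusted p = 0.272, limma). CG30111 lay at 1.59, 1.68 and 0.86 on day 10 replicates 2, 3 and 4 against 0.13, -0.01 and 0.30 on day 14 (difference -1.24 ± 0.23 SE, adjusted p = 0.314, limma). These separations depend on the day 10 signs. Turning day 10 replicates 1, 2 and 3, a setting chosen after seeing the data, made the differences 0.31 for wus and 0.94 for CG30111. In CG5107, CG1647 and Nemp, a protein of the nuclear envelope, the differences were -1.21, -0.75 and -0.85, and -0.04, 0.53 and -0.33 so turned. With day 10 replicate 1 left out, 8 genes passed and all were lower at day 14, and with day 10 replicate 4 left out 1 gene did. Above 0 they were Ubi-p63E, Ank2, elg1, Rassf and Ace. Ubi-p63E lay at -0.48, -0.27, -0.41 and -0.13 on day 10 against the day 14 values given above (difference 0.66 ± 0.15 SE, adjusted p = 0.439, limma). Ank2, which anchors the axonal membrane skeleton, lay at -0.41, -0.27, -0.34 and -0.40 on day 10 and at 0.43, 0.14 and 0.15 on day 14. Ace, which breaks down acetylcholine, lay at -0.68, -0.40, -0.72 and -0.41 on day 10 and at 0.35, -0.12 and 0.09 on day 14. With day 10 replicates 1, 2 and 3 turned, the differences were 0.08 for Ubi-p63E, 0.08 for Ank2, 0.23 for elg1, -0.32 for Rassf and -0.24 for Ace. The values of the days then overlapped in Ubi-p63E, Ank2 and Ace.

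Oxidative phosphorylation and the vacuolar ATPase, among the lists at the upper end on day 14, were also measured on day 10. Oxidative phosphorylation had 22 of 29 genes above 0 (beside 53.1% of all genes) and a median of 0.058 on day 10, and the median difference was -0.012 over 24 genes, with 11 above 0 (beside 48.6% of all genes). For the vacuolar ATPase the day 10 median was 0.062, with 8 of 9 above 0, and 5 of 8 differences were above 0. ND-B17.2 stood at 0.19, -0.17, -0.07 and 0.01 on day 10 (difference 0.34 ± 0.13 SE, adjusted p = 0.56, limma), and Gad1 at -0.05, -0.09, -0.54 and -0.17 (difference 0.35 ± 0.15 SE, adjusted p = 0.56, limma). Turning those day 10 arrays gave 0.32 for ND-B17.2 and 0.01 for Gad1. Fat body genes had a median of 0.224 over 19 genes on day 10 and -0.023 over 12 genes on day 14. The median difference was -0.366, with 8 of 12 differences below 0. The day 10 medians of this list ran from -0.144 to 0.672 between arrays.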

How the data were processed

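The data are log2 ratios, 1 per spot and array, as the authors deposited them in 1 table of the series. Per the labels they were normalized by ratio. The series text names GenePix Pro 6.0 for quantification, Acuity 4.0 for normalization, filters on saturated pixels (under 3%), on regression R2 (0.6 or more) and on signal to noise (3 or more), and SAM 2.21 for testing, which was not run here. No source used here states the log base, which was taken as 2. Per the labels RNA came from pools of heads, and the series text calls the 4 arrays of a day biological replicates. It gives the starting age as 1 day less than the labels do.

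Of 27648 spots, 15116 carried 1 gene name in the platform table, 102 carried several and were left out, and 12430 were unnamed here. Symbols of 14894 spots were updated through a RefSeq table. Array medians at day 14, 1.373, 1.588, 0.756 and 0.558 as deposited, were set to 0, and spots were averaged per gene. The mean was tested against 0 with limma 3.58.1 in R 4.3.3 on the 4 arrays (prior degrees of freedom 6.2), and the difference from day 10 on 8 arrays. The difference fit took the 8 arrays as independent, although the day 10 arrays fall into correlated pairs. Deviations from the gene mean on day 14 replicate 2 had r of 0.318 and 0.304 with those on day 10 replicates 1 and 2. With day 10 replicates 3 and 4 it was -0.264 and -0.272. That 0 genes passed at day 14 does not show that changes of 0.5 or of 1 were absent. The signs of the arrays are open to doubt, and a change of 1 sign would largely cancel in the mean if 2 of the 4 arrays were turned. The day 8 columns were identical wherever they shared a spot and were not used for a comparison. The number and coverage of the arrays limit the precision, and intensities were not analysed here.

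Genes were named by a rule: the 10 highest and 10 lowest means with 1 sign on 4 arrays, the 5 smallest p in each direction with 1 sign, up to 3 such members per list and direction, the GABA genes, and the 5 smallest p of the difference in each direction. Not all list members so named are described. The members, lists and tests were chosen with earlier results of these data known, and 45 list members matched only by letters were removed after values were seen. Replicate numbers were checked for pairing between the days: the r of same-numbered arrays' deviations was -0.102, 0.304, 0.153 and 0.119, while differently numbered arrays reached 0.318. As 1 of the 4 was not above 0.1, the numbers were not taken to pair the arrays.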

Additional observations from a re-analysis of the deposited data

Results flagged for a closer look

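Of 40 named genes with 4 values, 4 had 1 array apart from the other 3 by Dixon's ratio of gap to range. Chance alone marks about 1 group in 20, and the ratio takes no account of the size of the range. The 4 were vig (ratio 0.878, replicate 4 low), foxo (0.877, replicate 1 low), CG42588 (0.845, replicate 3 high) and HP1b (0.839, replicate 2 low), a heterochromatin protein with values of -0.01, -0.14, -0.03 and -0.02. The arrays of CG42588 and HP1b lay close together, so their flags mark small gaps.

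Of 48 lists, 7 had 1 array median apart. Replicate 2 was low in glutathione S-transferases (0.851) and chaperones (0.930). Replicate 3 was high in eye genes (0.898) and low in muscle genes (0.888). Replicate 4 was low in RNA polymerase and transcription genes (0.849), actin cytoskeleton genes (0.872) and small-molecule transporters (0.949). The medians of hormone and nuclear receptor genes were above 0 on all 4 day 14 arrays and below 0 on all 4 day 10 arrays. They covered 14 tested genes on day 14 and 17 on day 10. The median difference was 0.069, with 10 of 11 differences above 0 (beside 48.6% of all genes). The list was flagged for this separation of the days, which was not tested and depends on the signs of the channel labels. With replicates 3 and 4, 2 and 4, or 2 and 3 turned, its day 14 median was -0.024, 0.067 and -0.039. It was 0.013 with runs of neighbouring spots at 0. The array medians of monoamine genes did not overlap between the days either. They ran from 0.034 to 0.116 on day 14 and from -0.204 to 0.020 on day 10.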

How the results depend on the processing

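As deposited, without centring, the arrays stand at medians up to 1.588, which moves the median of every list: 2990 of 3010 genes then passed at day 14, all 2990 of them above 0 at an unadjusted p and 0 below, 2976 had 1 sign above 0 and 0 below, and the list medians were 1.201 for oxidative phosphorylation, 1.260 for the vacuolar ATPase, 1.180 for eye, 1.239 for muscle and 1.076 for trafficking. The difference from day 10 then gave 2362 genes, adjusted and unadjusted. Setting block medians to 0, medians of short runs of neighbouring spots to 0 (chosen after seeing the data), the median of spots, agreeing spots and a shared spread all left 0 genes passing, and 539 of 819 genes kept 1 sign with runs at 0. All 29 genes named for the size of their mean or their p kept the sign of their mean under blocks and runs, and 28 of 28 with agreeing spots.

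With the signs of replicates 2 and 4 turned, 1 gene passed (Obp99b, adjusted p = 0.0272, limma), 24 lay below 0 at an unadjusted p, and medians were 0.035 for oxidative phosphorylation, 0.084 for the vacuolar ATPase, 0.016 for eye, -0.004 for muscle and 0.032 for trafficking. With replicates 3 and 4 turned, 40 lay above 0 at an unadjusted p, 277 had 1 sign above 0, and medians were -0.048 for oxidative phosphorylation, -0.088 for the vacuolar ATPase, -0.019 for eye, -0.014 for muscle and 0.030 for trafficking. With replicates 2 and 3 turned, 75 lay above and 30 below at an unadjusted p, 253 had 1 sign below 0, and medians were -0.025, -0.101, -0.037, 0.015 and -0.009. Of the 29 genes, 16, 17 and 11 kept their sign with replicates 3 and 4, 2 and 4, and 2 and 3 turned. The cause was not tested.

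With all 4 arrays required, 27 and 16 genes lay above and below at an unadjusted p, and 62 and 36 had 1 sign, over 719 genes. Leaving out 1 replicate at a time, with 2 values then sufficing, gave 0 to 6 genes passing. Without replicate 1 they were CG18004, CG32633, CG6296, Noc2, p-cup and sut4, and without replicate 2 it was Obp99b, which lay at 1.59, -1.34 and 1.19 on replicates 1, 2 and 3. Genes with 1 sign then numbered 532 to 803 above and 449 to 690 below, and at an unadjusted p 85 to 220 lay above and 80 to 151 below. The muscle median ran from 0.060 to 0.133, that of eye genes from 0.056 to 0.121 and that of trafficking from -0.061 to -0.008.

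For the difference from day 10, the replicate numbers as a replicate block gave 1 gene (wus, adjusted p = 0.0458, limma) and 190 at an unadjusted p beside 210, but the numbers were not taken to pair the arrays. Leaving out 1 array gave 0 to 8 genes passing. All 4 arrays of both days required left 61 at an unadjusted p, and turning day 10 replicates 1, 2 and 3, whose labelling text names the other dye (chosen after seeing the data), left 119.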
